A study of Mus musculus with 36 samples.

Results

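Dlk1 and 9 other imprinted genes that act on growth (Meg3, Igf2, H19, Peg3, Cdkn1c, Plagl1, Grb10, Mest and Ndn) were followed in cultured mouse enteric glial cells (EGCs). They were chosen by name and with earlier results of these data known. They are 10 of the 43472 gene rows in the count table, of which 23121 had at least 1 count. EGCs are the glia of the gut wall. The cells were WT, were grown as neurospheres from whole embryonic intestines of C57BL/6J mice, and were then dissociated and differentiated in serum. They were left unstimulated, or received conditioned medium from cells of healthy colon (H-CM) or medium from cells of orthotopic MC38 colon tumors, which carries factors of the tumor microenvironment (TME-CM). RNA was taken 6, 12 or 24 h later, with 4 libraries in each of the 9 groups and 36 in all. The cultures start from all cells of the intestine, so that cells other than glia may remain in them, and the labels do not say whether the 4 libraries of a group came from separate cultures or animals. The p-values therefore measure the spread between these libraries, which may be technical.

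An imprinted gene is transcribed mainly from the copy inherited from 1 parent. Dlk1, Igf2, Peg3, Plagl1, Mest and Ndn are known to be read from the paternal copy, and Meg3, H19 and Cdkn1c from the maternal copy, while the active copy of Grb10 depends on the tissue. Imprinted genes often lie in clusters under shared control, they are highly expressed in embryonic tissue, and many of them set how fast a tissue grows and when its cells leave the cycle. The counts do not separate the parental copies, so that nothing here measures imprinting itself. Dlk1 encodes a membrane protein related to the Notch ligands that holds precursor cells in an undifferentiated state, and Meg3 is a long non-coding RNA of the same cluster.

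In the GRCm38 annotation Dlk1 lies on chromosome 12 from 109452823 to 109463336 and Meg3 from 109541001 to 109571726, both on the + strand. Igf2 (142650766 to 142666816, - strand), H19 (142575529 to 142578143, - strand) and Cdkn1c (143458339 to 143461050, - strand) are near each other on chromosome 7. Peg3 (6703892 to 6730431) and Ndn (62346569 to 62350262) are elsewhere on chromosome 7. Plagl1 is on chromosome 10 (13060504 to 13131694), Grb10 on chromosome 11 (11930508 to 12038683) and Mest on chromosome 6 (30723547 to 30748465).

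Dlk1 and Meg3 are the neighbouring pair whose levels were both lower with TME-CM than in unstimulated cells at 12 h and 24 h. Against H-CM the difference of Meg3 did not pass the edgeR test described below. The 250 bases before the annotated start of each are shown, 5′ to 3′ on the + strand, from RefSeq's GRCm38.p6 table. The windows are chr12:109452573-109452822 for Dlk1 and chr12:109540746-109540995 for the first of the 2 listed starts of Meg3. Capitals mark matches to the TATA box (TATAAA), the CCAAT box (those letters), the GC box (GGGCGG) or the cAMP response element (TGACGTCA), searched on both strands. The TATAAA matches of Meg3 on its own and on the opposite strand overlap and form 1 run of capitals.
Dlk1: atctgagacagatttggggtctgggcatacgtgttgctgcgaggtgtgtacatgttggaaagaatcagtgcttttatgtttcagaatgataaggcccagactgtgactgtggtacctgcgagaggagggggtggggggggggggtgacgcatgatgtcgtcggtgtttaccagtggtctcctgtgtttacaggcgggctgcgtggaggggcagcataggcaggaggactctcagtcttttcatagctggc
Meg3: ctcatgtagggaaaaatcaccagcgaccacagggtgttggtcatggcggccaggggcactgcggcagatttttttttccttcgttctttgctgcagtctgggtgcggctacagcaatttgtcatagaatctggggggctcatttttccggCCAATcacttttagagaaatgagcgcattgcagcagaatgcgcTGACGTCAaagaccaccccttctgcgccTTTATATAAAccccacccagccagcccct

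The Dlk1 window held none of these letters. The Meg3 window held TATAAA starting 25 bases, TGACGTCA 57 bases and CCAAT 100 bases before the start. Of all 32851 listed windows of this length, 12.4% held TATAAA, 33.8% CCAAT, 32.7% GGGCGG and 1.55% TGACGTCA on either strand. Of the 15 windows listed for 8 of the 10 genes, 7 held GGGCGG. These were the windows of Plagl1 and Mest and part of those of Igf2 and Grb10. The Mest windows that begin at 30737800 and 30737803 overlap and hold the same match. TGACGTCA was in 2 windows, the first of Meg3 and that of Peg3. Windows were not listed for H19 and Cdkn1c. Such matches describe the letters in a window and are not known binding sites.

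Library totals were 13518 to 5244763 counts at 6 h, 2005239 to 5961933 at 12 h and 1608018 to 7552509 at 24 h. Values are given as counts scaled to 1000000 per library (CPM) after 1 scaling of all libraries (trimmed mean of M-values, TMM). The library with 13518 counts was H-CM at 6 h, replicate 4, where a count of 0 still allows 110.5 CPM, so its values for genes at low level carry little information. Unstimulated replicate 3 at 6 h held 256453 counts, where a count of 0 allows 15.8 CPM. In the libraries of 12 h and 24 h a count of 0 allows at most 1.53 CPM. These limits cover counting error only. The reads come from the 3′ ends of transcripts and are not scaled by length, so that levels were compared between groups for each gene and not between genes. A gene is called higher or lower where the adjusted p of edgeR's quasi-likelihood test, with Benjamini-Hochberg adjustment over all genes tested at that time point, is under 0.05. All 10 genes passed the filter on low counts at each time point. TME-CM and H-CM were compared with the same unstimulated libraries, so those comparisons are not independent of each other.

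Of the 10 genes, 5 were lower with TME-CM than in unstimulated cells at 24 h (Dlk1, Meg3, Cdkn1c, Grb10 and Mest) and 0 were higher, where 4.7% of the 12713 genes tested were called lower. Against H-CM at 24 h, 2 of the 10 were lower, Dlk1 and Cdkn1c, where 2.65% of genes were called lower. At 12 h, 3 of the 10 were lower than in unstimulated cells (Dlk1, Meg3 and Cdkn1c, 1.74% of the 12156 genes tested called lower) and 1 was lower than with H-CM (Dlk1, 0.675% called lower). All TME-CM libraries lay below all libraries of the other group for 4 of the 10 genes against unstimulated at 24 h (6.32% of all genes), 4 against H-CM at 24 h (5.57%), 4 against unstimulated at 12 h (4.61%) and 3 against H-CM at 12 h (3.27%). The median log2 fold change of the 10 genes was -0.46 against unstimulated and -0.62 against H-CM at 24 h, beside medians of 0.0044 and 0.0049 over all genes tested. Because the 10 were chosen with earlier results of these data known, these counts and medians describe them. They do not test an excess over all genes. Between H-CM and unstimulated cells edgeR called 0 of the 10 at 24 h (2.03% of all genes called) and 0 at 12 h (0.403%). At an unadjusted p under 0.05 these counts were 4 and 1, beside 10.6% and 5.66% of all genes, and with DESeq2 1 and 0, beside 3.23% and 0.806%. At 6 h edgeR and DESeq2 called 0 of the 10 in the 3 comparisons of media, and 0 had an unadjusted p under 0.05 (6.07%, 6.19% and 0.627% of all genes for TME-CM against H-CM, TME-CM against unstimulated and H-CM against unstimulated). These counts of 0 do not show that the levels were alike, since the SE of the log2 fold change of TME-CM against unstimulated was 0.36 to 1.13 over the 10 genes at 6 h and 0.12 to 0.33 at 24 h. At that early time 0.0972% of 9256 genes were called between TME-CM and H-CM, 0.454% between TME-CM and unstimulated and 0% between H-CM and unstimulated. Plagl1 was the 1 gene of the 10 whose TME-CM libraries at 6 h all lay below those of H-CM (0.583% of all genes).

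**Figure D1:**
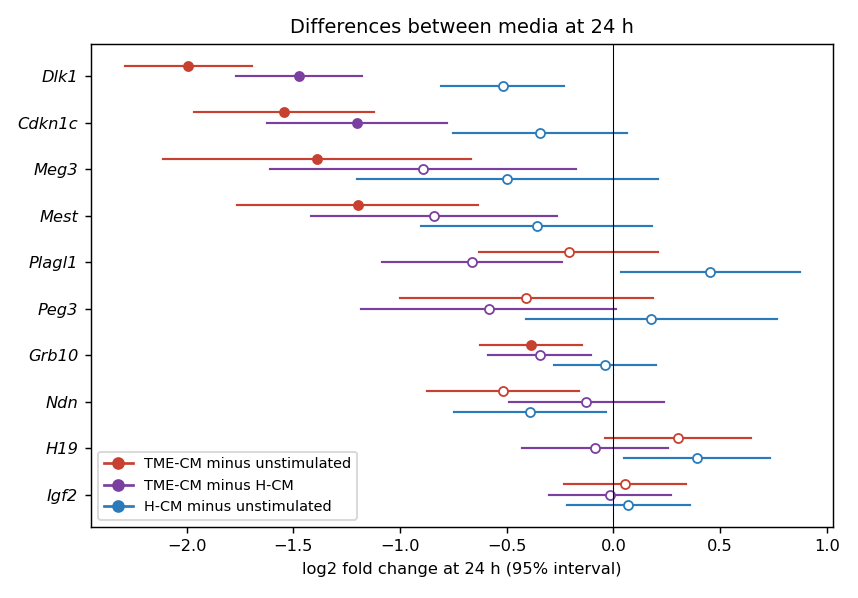
Log2 fold changes of the 10 imprinted genes at 24 h (points) with 95% intervals (lines) for 3 comparisons of media, with filled points for an adjusted p under 0.05. Within each TME-CM comparison the point of Dlk1 lies farthest to the left, at -1.99 against unstimulated and -1.47 against H-CM. The points of Igf2 lie at 0.05 and -0.02.

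At 24 h, Dlk1 was about 4 times lower with TME-CM than in unstimulated cells. Unstimulated libraries 1 to 4 held 881, 1081, 1053 and 1097 CPM. The H-CM libraries held 489.9, 777, 812 and 792 CPM, and the TME-CM libraries 243, 256, 270.4 and 267 CPM. The 3 groups did not overlap: every TME-CM library was below every H-CM library, and every H-CM library below every unstimulated library, with H-CM replicate 1 lowest in its group. TME-CM differed from unstimulated by a log2 fold change of -1.99 (SE 0.14, 95% interval -2.29 to -1.69), a level 3.98 times lower (edgeR quasi-likelihood adjusted p = 2.83e-09). TME-CM differed from H-CM by -1.47 (SE 0.14, 95% interval -1.77 to -1.18), a level 2.77 times lower (edgeR adjusted p = 7.62e-07). Among the genes called lower, Dlk1 had the 2nd smallest p of 337 against H-CM and the 2nd smallest of 597 against unstimulated. By size of change it was 75th and 71st in the same comparisons. H-CM differed from unstimulated by -0.52 on the log2 scale, which did not pass the test (95% interval -0.81 to -0.23, edgeR adjusted p = 0.0557), although the groups did not overlap (4.04% of genes were lower in all H-CM libraries). Without unstimulated replicate 1, the lowest of its group, that difference was -0.59 (edgeR adjusted p = 0.0227), and at the same size as with all libraries it passed without the filter on low counts (adjusted p = 0.0146) and with DESeq2 (0.0227).

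Markers of smooth muscle were also lower with TME-CM. Their summed level over 11 genes at 24 h had a median of 9884 CPM in unstimulated libraries (9261 to 11016), 4691 CPM with H-CM (4394 to 5700) and 3151 CPM with TME-CM (2576 to 3430), 3 ranges that did not overlap. At 12 h the medians were 6566, 4475 and 3321 CPM, and at 6 h the ranges overlapped. All 10 markers tested were lower with TME-CM than in unstimulated cells at 24 h (median log2 fold change -1.71), 6 of 10 were lower than with H-CM and 8 of 10 were lower with H-CM than in unstimulated cells. Of all 12713 genes tested, 597, 337 and 122 were called lower in these comparisons. Myh11, the smooth muscle myosin heavy chain, had 25.2 ± 5.06 CPM with TME-CM and 147 ± 56.5 CPM in unstimulated cells (log2 fold change -2.56, edgeR adjusted p = 1.37e-06). The part of these markers in the levels of Dlk1, Meg3, Cdkn1c, Grb10 and Mest was not tested, and in bulk samples fewer cells of a type and less RNA per cell cannot be told apart.

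**Figure D2:**
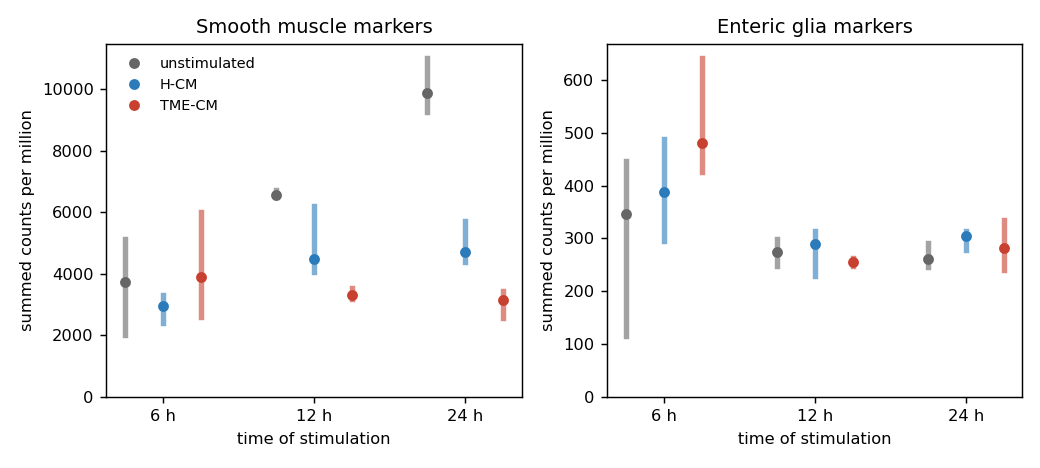
Summed CPM (vertical axes, from 0) of the smooth muscle and the enteric glia markers by time of stimulation, with points for the median and bars for the range of 4 libraries. At 24 h the smooth muscle sums of unstimulated, H-CM and TME-CM libraries have medians of 9884, 4691 and 3151 CPM and do not overlap, and the glial sums overlap.

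At 12 h the means of Dlk1 had the same order as at 24 h. Dlk1 held 913, 927, 857 and 1074 CPM in unstimulated libraries, 497, 803, 905 and 741 CPM with H-CM, and 308, 325, 346 and 384 CPM with TME-CM. All TME-CM libraries were below all others, while the H-CM and unstimulated libraries overlapped. TME-CM was lower than H-CM by 1.11 on the log2 scale (log2 fold change -1.11, SE 0.18, edgeR adjusted p = 0.00119) and differed from unstimulated by -1.47 (SE 0.18, edgeR adjusted p = 2.04e-05). H-CM differed from unstimulated by -0.37 (95% interval -0.73 to 0.00284, edgeR adjusted p = 0.879). All 4 Dlk1 calls against H-CM and unstimulated at 12 h and 24 h held in each of 8 fits that left out 1 library, with log2 fold changes of -1.26 to -1.01 against H-CM at 12 h and -1.62 to -1.41 at 24 h.

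At 6 h no difference of Dlk1 between media was called. Unstimulated libraries held 232, 349, 179 and 304 CPM, H-CM libraries 233, 245, 168 and 405 CPM, and TME-CM libraries 305, 233, 412 and 315 CPM. The 3 groups overlapped fully. The H-CM value of 405 CPM rests on 11 counts in the library of 13518 counts. The unstimulated value of 179 CPM rests on 34 counts in a library of 256453 counts. The difference of TME-CM from unstimulated was 0.21 (95% interval -0.52 to 0.94, edgeR adjusted p = 0.960) and that from H-CM 0.33 (95% interval -0.43 to 1.09), or 0.58 without H-CM replicate 4.

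From 6 h to 12 h the level of Dlk1 rose in unstimulated cells and with H-CM. In 1 model of the 24 libraries of both times, added after the levels were seen, Dlk1 averaged 266 ± 75.3 CPM (SD, n = 4) in unstimulated cells at 6 h and 943 ± 92.7 CPM at 12 h. That is 1.80 on the log2 scale (SE 0.28, edgeR adjusted p = 0.000474), and Dlk1 was the 1 gene of the 10 called, where 0.071% of 12668 genes were called higher. With H-CM its means were 263 ± 101 and 737 ± 173 CPM, which differed by 1.62 on the log2 scale (SE 0.29, edgeR adjusted p = 0.0081), again as the 1 gene of the 10 called and with 0.0158% of genes called higher. That call held without H-CM 6 h replicate 4 (edgeR adjusted p = 0.00101) and was lost without H-CM 6 h replicate 1 (0.107), replicate 2 (0.0656) or replicate 3 (0.211). Other properties of the libraries also moved between these times. Mitochondrial genes held 4.83 to 16.8% of the counts in unstimulated libraries at 6 h and 1.93 to 3.18% at 12 h, and 5.87 to 7.99% and 3.10 to 6.88% with H-CM. The row Yam1 held 13.1 to 46.3% and 12.6 to 39.9% of counts in unstimulated libraries, and 20.0 to 48.6% and 14.9 to 32.6% with H-CM. The TMM factors of unstimulated and H-CM libraries ran from 0.682 to 2.01 at 6 h and from 0.844 to 1.23 at 12 h. The part of these shares and factors in the rise of Dlk1 was not tested.

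With TME-CM the means of Dlk1 were 316 ± 73.5 CPM at 6 h and 341 ± 32.7 CPM at 12 h, a log2 fold change of 0.08 (95% interval -0.46 to 0.62, edgeR adjusted p = 0.907). The TME-CM libraries also moved between these times. Their lowest mitochondrial share at 6 h was 10.7%, and their highest at 12 h was 3.23%. Their number of genes with a count ran from 10120 to 13796 at 6 h and from 13386 to 16027 at 12 h. The part of these shifts in the level of Dlk1 with TME-CM was not tested. The change of the difference between TME-CM and unstimulated from 6 h to 12 h was -1.72 (95% interval -2.49 to -0.95) and missed the threshold (edgeR adjusted p = 0.0611), where 0.0789% of genes passed it. EdgeR called 0 of the 10 genes for this change, with 3 at an unadjusted p under 0.05 (7.79% of all genes), and DESeq2 called 1, Dlk1 (-1.54, adjusted p = 0.00387), and 0.458% of all genes. Without the filter on low counts the edgeR adjusted p of Dlk1 was 0.0146. Without TME-CM 6 h replicate 2 the edgeR adjusted p of Dlk1 was 0.0192, and without unstimulated 6 h replicate 4 it was 0.0337. From 12 h to 24 h Dlk1 differed by 0.12 in unstimulated cells (95% interval -0.21 to 0.44), by -0.04 with H-CM (95% interval -0.37 to 0.29) and by -0.39 with TME-CM (95% interval -0.72 to -0.06, edgeR adjusted p = 0.492). None of these 3 differences passed the test, although all 4 TME-CM libraries of 24 h were below all 4 of 12 h (2.3% of genes).

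**Figure D3:**
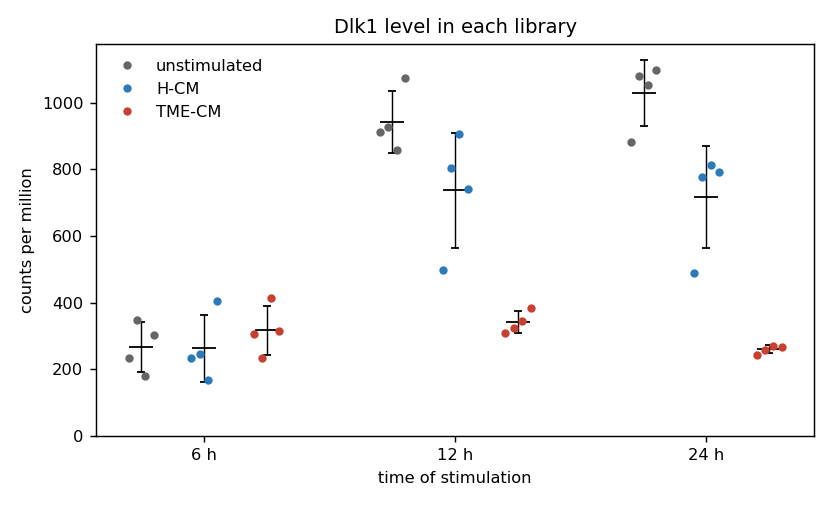
Dlk1 level in CPM (vertical axis, from 0) in each of the 36 libraries by time of stimulation, with points for libraries, bars for the mean of 4 libraries and whiskers for 1 SD. The TME-CM libraries stay between 233 and 412 CPM at all 3 times, while the unstimulated libraries lie between 857 and 1097 CPM at 12 h and 24 h.

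Meg3, the non-coding RNA next to Dlk1, was also lower with TME-CM than in unstimulated cells, with a wider spread. At 12 h unstimulated libraries held 491, 461, 611 and 642 CPM, H-CM libraries 372, 594, 228 and 503 CPM, and TME-CM libraries 184, 205, 345 and 150.3 CPM. All TME-CM libraries were below all unstimulated ones but not below all H-CM ones. Against unstimulated Meg3 differed by -1.33 on the log2 scale (SE 0.27, edgeR adjusted p = 0.00355), a level 2.51 times lower, and against H-CM by -0.93 (SE 0.26, edgeR adjusted p = 0.0852). The difference from H-CM passed the threshold without H-CM 12 h replicate 3 (adjusted p = 0.0107) or without TME-CM 12 h replicate 3 (0.0158), without the filter on low counts (0.000267) and with DESeq2 (0.0270). With all libraries numbered 4 left out, the difference from unstimulated was -1.09 and did not pass (0.0872).

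At 24 h Meg3 read 156, 563, 415 and 377 CPM in unstimulated libraries, 222, 295, 297 and 258 CPM with H-CM, and 115, 99.0, 195 and 168 CPM with TME-CM. Unstimulated replicate 1 was as low as the TME-CM libraries, so those groups overlapped, whereas every TME-CM library was below every H-CM library. Meg3 differed by -1.39 on the log2 scale from unstimulated (SE 0.33, edgeR adjusted p = 0.018) and by -0.89 from H-CM (95% interval -1.61 to -0.18, edgeR adjusted p = 0.181). Without the filter on low counts the difference from H-CM had nearly the same size, -0.90, with an SE of 0.14 in place of 0.33, and passed (edgeR adjusted p = 6.75e-08). So did the difference of H-CM from unstimulated (-0.50, 0.0293). The call against unstimulated was lost without TME-CM 24 h replicate 1 (adjusted p = 0.0615) or replicate 2 (0.0593), and without all libraries numbered 4 (0.0860). From 6 h to 12 h Meg3 fell with TME-CM, with means of 796 ± 112 and 221 ± 85.7 CPM that differed by -1.87 on the log2 scale (SE 0.41, edgeR adjusted p = 0.0149). It was the 1 gene of the 10 called, where 0.718% of all genes were called lower. That call was lost without TME-CM 6 h replicate 3 (0.0502) or without TME-CM 12 h replicate 1 (0.0808), replicate 2 (0.0702) or replicate 4 (0.0849), and without all libraries numbered 4 (0.0909). The mitochondrial share of the TME-CM libraries was also lower at 12 h than at 6 h, as given above for Dlk1. Its part in the fall of Meg3 was not tested. In unstimulated cells the difference of Meg3 from 6 h to 12 h was -0.42 (95% interval -1.22 to 0.38). With H-CM its means were 616 ± 364 CPM at 6 h and 424 ± 159 CPM at 12 h, a difference that was not called. EdgeR also did not call, for Meg3, the change of the difference between TME-CM and unstimulated from 6 h to 12 h. Gm26906, annotated on the opposite strand and listed at 0 in every library, overlaps 426 of the last 1000 exon bases of Meg3.

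Rian and Mirg, 2 further non-coding RNAs of the cluster of Dlk1 and Meg3, were lower with TME-CM than in unstimulated cells at 24 h. Rian had 5.54 ± 1.55 CPM with TME-CM and 14.9 ± 5.17 CPM in unstimulated cells, with log2 fold changes of -1.44 against unstimulated (edgeR adjusted p = 0.00135) and -1.22 against H-CM (0.0125). Mirg had 6.35 ± 2.94 CPM with TME-CM and 17.1 ± 5.74 CPM in unstimulated cells, a log2 fold change of -1.37 (edgeR adjusted p = 0.00364). Against H-CM the difference of Mirg was -0.84 and did not pass the test (0.140). Rtl1 and Dio3, the protein-coding genes of the same cluster beside Dlk1, averaged under 1 CPM in every group at 12 h and 24 h and were not tested.

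Igf2, a growth factor of the embryo, and H19, a non-coding RNA transcribed next to it, showed no called difference between media. At 24 h Igf2 held 1292, 1228, 1416 and 1082 CPM in unstimulated libraries, 1406, 1417, 1417 and 1031 CPM with H-CM, and 1384, 1444, 1422 and 977 CPM with TME-CM. The groups overlapped, and replicate 4 was the lowest library of each. The log2 fold change of TME-CM was 0.05 against unstimulated (95% interval -0.23 to 0.34) and -0.02 against H-CM (95% interval -0.30 to 0.27), intervals that exclude changes of the size measured for Dlk1. The adjusted p was 0.915 and 0.977 (edgeR).

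H19 held 4378, 5372, 5705 and 3855 CPM in unstimulated libraries at 24 h, 7057, 7363, 6699 and 4234 CPM with H-CM, and 6107, 6255, 6865 and 4686 CPM with TME-CM. Replicate 4 was again lowest in each group, and the groups overlapped. The log2 fold change of TME-CM was 0.30 against unstimulated (95% interval -0.04 to 0.65, edgeR adjusted p = 0.345) and -0.09 against H-CM (95% interval -0.43 to 0.25). H-CM against unstimulated was 0.39 (95% interval 0.05 to 0.73, edgeR adjusted p = 0.358). At 12 h replicate 4 held 4720, 4872 and 4486 CPM of H19 in unstimulated, H-CM and TME-CM cells, while the other libraries lay between 6256 and 9478 CPM. From 6 h to 12 h with H-CM the difference of H19 passed only in the fit without the filter on low counts (0.95 on the log2 scale, edgeR adjusted p = 0.0356).

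At 6 h the TME-CM libraries fell apart for both genes. Igf2 held 2553 and 2249 CPM in TME-CM replicates 1 and 3 but 1047 and 1157 CPM in replicates 2 and 4. H19 held 10271 and 8549 CPM in replicates 1 and 3 but 3841 and 3907 CPM in replicates 2 and 4. The same libraries also differed in the number of genes with a count, 10120 and 10433 in replicates 1 and 3 and 13481 and 13796 in replicates 2 and 4, whose part in these levels was not tested. The differences from unstimulated, 0.70 for Igf2 (95% interval -0.06 to 1.46) and 0.63 for H19 (95% interval -0.17 to 1.43), did not pass the test (edgeR adjusted p = 0.815 and 0.824). The annotated exons of Igf2 share 3596 of 5723 bases with Gm49394, a gene model on the same strand that was not analysed here, including 997 of the last 1000 bases. Reads from the 3′ end could therefore belong to either model, and how they were assigned is not given in the sources used here.

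**Figure D4:**
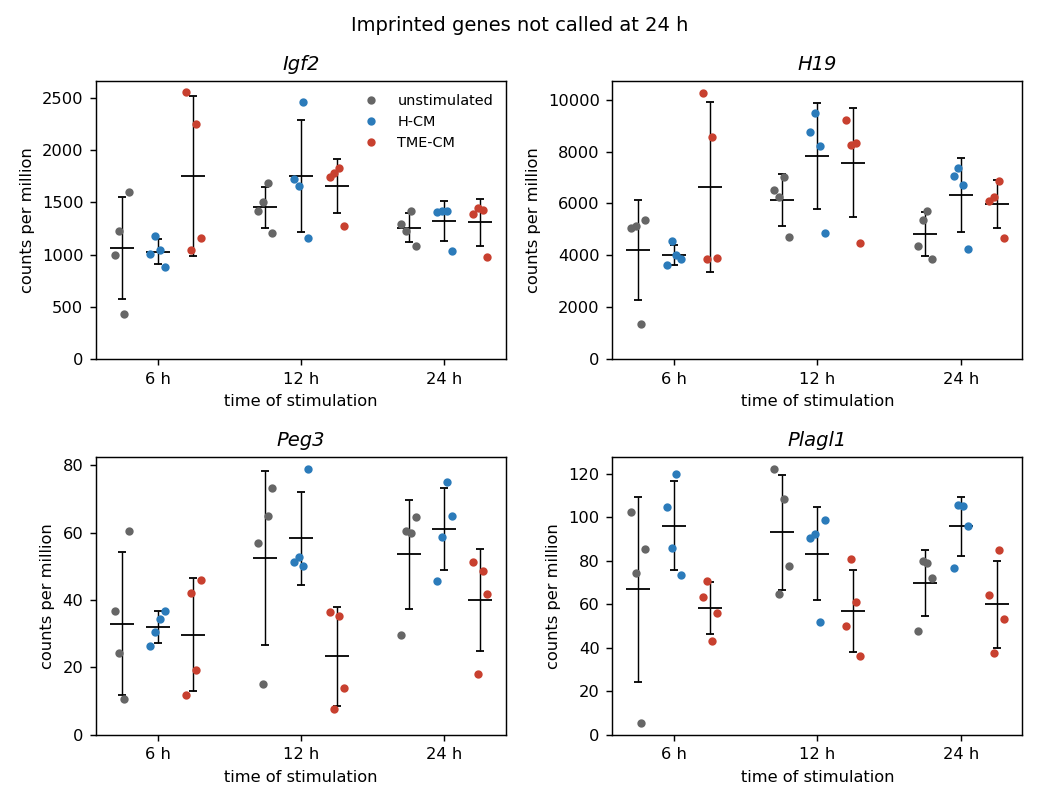
Levels of Igf2, H19, Peg3 and Plagl1 in CPM (vertical axes, from 0) in each library by time of stimulation, with bars for the mean of 4 libraries and whiskers for 1 SD. At 24 h the 3 media overlap in each panel, and the lowest library of each group for Igf2 and H19 is replicate 4.

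Cdkn1c, an inhibitor of cyclin-dependent kinases that holds cells out of the cycle, was lower with TME-CM than with either other medium at 24 h. Unstimulated libraries held 204, 213, 207 and 175 CPM, H-CM libraries 103, 184, 202 and 139.6 CPM, and TME-CM libraries 70.1, 90.9, 71.0 and 44.8 CPM. Every TME-CM library was below every library of the other groups, and H-CM overlapped with unstimulated. Cdkn1c differed by -1.54 on the log2 scale from unstimulated (SE 0.20, edgeR adjusted p = 2.52e-05), a level 2.92 times lower, and by -1.20 from H-CM (SE 0.20, edgeR adjusted p = 0.000865), a level 2.30 times lower. Both calls held in each of the 8 fits that left out 1 library, with adjusted p up to 0.000323 and 0.0049. H-CM differed from unstimulated by -0.34 (95% interval -0.75 to 0.07, edgeR adjusted p = 0.592).

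At 12 h Cdkn1c held 228, 329, 194 and 186 CPM in unstimulated libraries, 152, 221, 104 and 188 CPM with H-CM, and 102, 174, 127 and 112 CPM with TME-CM. TME-CM lay below unstimulated in all libraries and overlapped with H-CM. The difference was -0.88 from unstimulated (SE 0.24, edgeR adjusted p = 0.0385) and -0.37 from H-CM (95% interval -0.87 to 0.13, edgeR adjusted p = 0.656). The first call was lost in 6 of the 8 fits without 1 library, with adjusted p of 0.0584 to 0.181: without unstimulated replicate 1, 2 or 3, or without TME-CM replicate 1, 3 or 4. It was also lost without all libraries numbered 4 (0.181). From 12 h to 24 h with TME-CM the log2 fold change was -0.89, with all 24 h libraries below all 12 h libraries, and did not pass the test (edgeR adjusted p = 0.0752, with 0.626% of all genes called). Its adjusted p was 0.0436 without TME-CM 24 h replicate 2, 0.000656 without the filter on low counts and 0.0202 with DESeq2. Over the 3 comparisons of 24 h with 12 h, edgeR called 0 of the 10 genes in unstimulated cells (0.0153% of all genes), with H-CM (0.00763%) and with TME-CM. At an unadjusted p under 0.05 these counts were 0, 1 and 2, beside 5.3%, 6.23% and 7.89% of all genes, and with DESeq2 0, 0 and 1, beside 0.153%, 0.168% and 1.26%. The change of the difference between TME-CM and H-CM from 12 h to 24 h was called by edgeR and DESeq2 for 0 of the 10 and by edgeR for 0% of all genes, and the 1 gene of the 10 with an unadjusted p under 0.05 was Cdkn1c (-0.81, 95% interval -1.47 to -0.14), beside 3.33% of all genes. Gm44732, annotated on the opposite strand and not analysed here, overlaps 117 of the last 1000 exon bases of Cdkn1c.

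Grb10, an adaptor protein that dampens insulin and IGF receptor signalling, showed a smaller difference. At 24 h it held 329, 362, 366 and 384 CPM in unstimulated libraries, 301, 329, 368 and 406 CPM with H-CM, and 263, 274, 283 and 287 CPM with TME-CM. All TME-CM libraries were below all others, within a narrow range. Grb10 differed by -0.39 on the log2 scale from unstimulated (SE 0.12, edgeR adjusted p = 0.036) and by -0.35 from H-CM (95% interval -0.59 to -0.10, edgeR adjusted p = 0.096). The call was lost in 6 of the 8 fits without 1 library, those without unstimulated replicate 2, 3 or 4 or without TME-CM replicate 1, 3 or 4, with adjusted p of 0.0578 to 0.112. It was also lost without the filter on low counts (0.0870) and without all libraries numbered 4 (0.147). The difference from H-CM passed without H-CM 24 h replicate 1 (0.0379) and with DESeq2 (0.0370). At 12 h TME-CM was also below every other library, at 214 to 264 CPM against 277 CPM and above, with log2 fold changes of -0.54 and -0.56 against unstimulated and H-CM that did not pass the test (edgeR adjusted p = 0.127 and 0.175).

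Mest, a protein of the alpha/beta hydrolase fold family, was at low level throughout. At 24 h it held 16.6, 10.6, 13.1 and 11.5 CPM in unstimulated libraries, 7.58, 12.3, 10.5 and 9.41 CPM with H-CM, and 6.49, 8.06, 4.57 and 4.03 CPM with TME-CM. TME-CM lay below unstimulated in all libraries and overlapped with H-CM by 1 library. Mest differed by -1.20 on the log2 scale from unstimulated (SE 0.27, edgeR adjusted p = 0.00466), a level 2.29 times lower, and by -0.84 from H-CM (95% interval -1.42 to -0.26, edgeR adjusted p = 0.0901). The difference from H-CM passed without TME-CM 24 h replicate 2 (0.0362) and with DESeq2 (0.0479), and that from unstimulated did not pass without all libraries numbered 4 (0.0503). Copg2, on the opposite strand, overlaps 912 of the last 1000 exon bases of Mest, and its own difference of TME-CM from unstimulated at 24 h was -0.31 (31.1 against 38.5 CPM, edgeR adjusted p = 0.430). Whether reads of the overlap were counted by strand is not given in the sources used here.

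**Figure D5:**
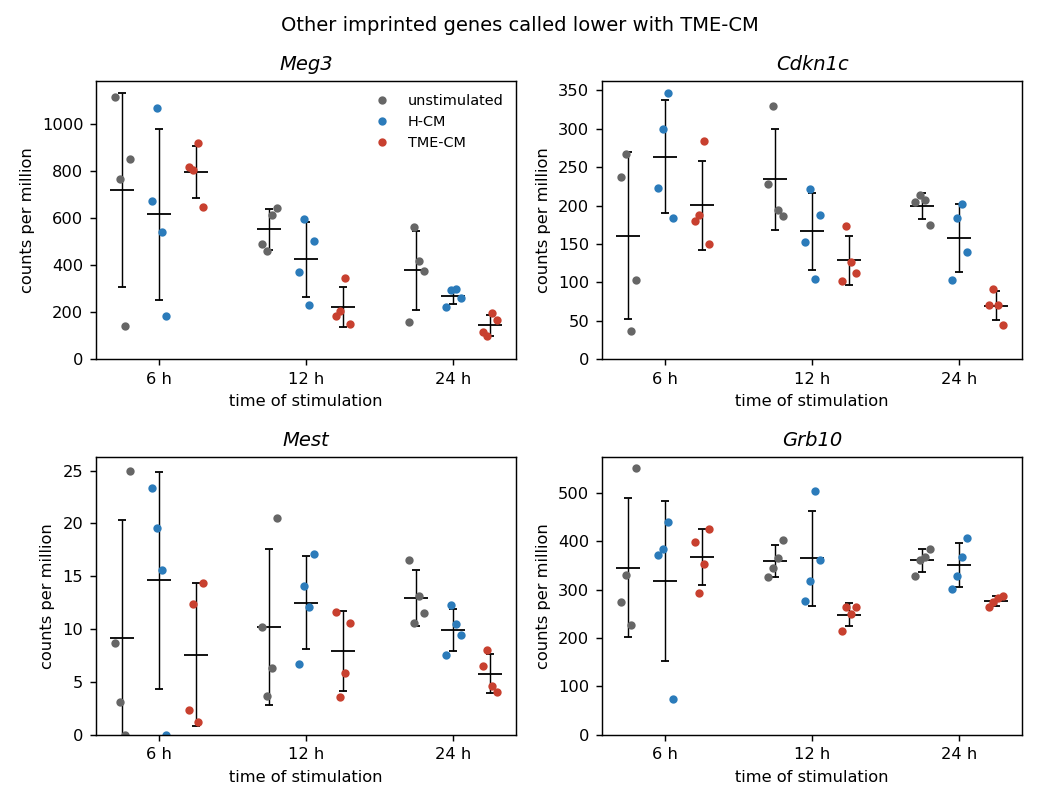
Levels of Meg3, Cdkn1c, Mest and Grb10 in CPM (vertical axes, from 0) in each library by time of stimulation, with bars for the mean of 4 libraries and whiskers for 1 SD. At 24 h the TME-CM libraries of Cdkn1c lie between 44.8 and 90.9 CPM, below all other libraries of that time, and those of Grb10 between 263 and 287 CPM.

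Plagl1 and Peg3 encode zinc finger proteins that act in growth control. At 24 h Plagl1 held 47.6, 80.1, 79.0 and 72.3 CPM in unstimulated libraries, 76.6, 106, 105 and 96.1 CPM with H-CM, and 64.2, 37.6, 84.9 and 53.4 CPM with TME-CM. The TME-CM libraries overlapped with both other groups. Plagl1 differed by -0.21 on the log2 scale from unstimulated (95% interval -0.63 to 0.21) and by -0.66 from H-CM (95% interval -1.09 to -0.24, edgeR adjusted p = 0.063), the latter passing without H-CM 24 h replicate 1 (0.0372) or TME-CM 24 h replicate 3 (0.0108), without the filter on low counts (0.00117) and with DESeq2 (0.0317).

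Peg3 held 51.4, 18.0, 48.7 and 41.8 CPM with TME-CM at 24 h, against 29.6, 60.4, 59.9 and 64.8 CPM in unstimulated libraries and 45.7, 58.8, 75.1 and 64.9 CPM with H-CM. These groups overlapped, with log2 fold changes of TME-CM of -0.41 against unstimulated (edgeR adjusted p = 0.516) and -0.58 against H-CM (95% interval -1.18 to 0.01, edgeR adjusted p = 0.323, or 0.0138 without the filter on low counts). At 12 h Peg3 was lower with TME-CM (7.60 to 36.3 CPM) than in every H-CM library (50.2 to 79.0 CPM), a difference of -1.29 (95% interval -2.26 to -0.33) that did not pass the test (edgeR adjusted p = 0.242). Without the filter it was -1.31 and passed (adjusted p = 4.74e-05). Dlk1, Peg3 and Grb10 were the 3 of the 10 genes whose TME-CM libraries lay entirely below those of H-CM at 12 h. Against unstimulated at 12 h the difference of Peg3 was -1.16 (edgeR adjusted p = 0.251), and without unstimulated 12 h replicate 2 it was -1.46 (0.0338). Without the filter this difference, too, kept its size of -1.16 and passed (0.000398).

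Ndn, a protein that holds neurons and other cells out of division, read 75.5, 44.7, 49.6 and 57.6 CPM in unstimulated libraries at 24 h, 40.5, 42.8, 50.6 and 37.6 CPM with H-CM, and 44.0, 46.8, 37.9 and 31.0 CPM with TME-CM. The groups overlapped. TME-CM differed by -0.52 on the log2 scale from unstimulated (95% interval -0.87 to -0.16, edgeR adjusted p = 0.0643) and by -0.13 from H-CM (95% interval -0.49 to 0.24). The first difference passed without TME-CM 24 h replicate 2 (0.034) or unstimulated 24 h replicate 2 (0.0353), and without the filter on low counts (0.0402).

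Over the 24 libraries of 12 h and 24 h, the genes whose log2 CPM followed that of Dlk1 most closely, out of 10036 genes that averaged 5 CPM or more, were Hspb1 (Pearson r = 0.93), Cav1 (0.93), Pln (0.93), Ehd4 (0.92) and Timp3 (0.92). Hspb1 is a small heat shock protein, Cav1 the main protein of caveolae, Pln a regulator of the calcium pump of muscle, and Timp3 an inhibitor of metalloproteinases. These values describe libraries that share groups and depth. After the mean of each group was subtracted, r was 0.69 for Hspb1, 0.48 for Cav1, 0.49 for Pln, 0.41 for Ehd4 and 0.08 for Timp3. Other genes were then closest to Dlk1: Gas6 (0.85), Atp6v1f (0.84), Dync1i2 (0.84), Rps9 (0.83) and Fam171a2 (0.82). At 24 h Cav1 had 16.6 CPM with TME-CM, 44.0 CPM with H-CM and 103 CPM in unstimulated cells on average. Pln averaged 0.267 CPM with TME-CM at 24 h. That is under the 0.404 to 1.15 CPM that a count of 0 allows in those libraries, so its r rests partly on values at the floor.

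Among the other 9 imprinted genes, r with Dlk1 was 0.82 for Grb10, 0.79 for Cdkn1c, 0.74 for Meg3, 0.57 for Mest, 0.46 for Peg3 and Plagl1, 0.37 for Ndn, -0.10 for Igf2 and -0.27 for H19. With the group means subtracted, r was 0.76 for Grb10 but 0.13 for Cdkn1c and 0.22 for Meg3.

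Of all 12713 genes tested at 24 h, 613 were called higher and 597 lower with TME-CM than in unstimulated cells. Against H-CM 349 were called higher and 337 lower, and these counts are the background for the lists below. At an unadjusted p under 0.05 the shares of all genes were 19.2% against unstimulated and 16% against H-CM, and DESeq2 called 11.2% and 7.1%. A list of 34 other imprinted genes held 24 that could be tested at 24 h. Of these, 4 were lower with TME-CM than in unstimulated cells and 1 higher, with a median log2 fold change of -0.21. Besides Rian and Mirg, Nnat, a small membrane protein of developing neural tissue, was lower (20.5 ± 11.5 against 55.4 ± 16.9 CPM, log2 fold change -1.50, edgeR adjusted p = 0.00464). Slc38a4, an amino acid transporter, had a difference of -0.97 (48.2 ± 13.1 against 94.5 ± 26.2 CPM, edgeR adjusted p = 0.0051). The gene called higher was Ascl2, a transcription factor, with 2.32 ± 0.81 CPM against 0.185 ± 0.37 CPM, which is under the 1.49 CPM that a count of 0 allows in the shallowest library. Against H-CM 1 gene was lower (Rian) and 1 higher (Ascl2), where DESeq2 called 3 lower and 0 higher. At 12 h edgeR called 0 of the 22 tested against either group, with 4 at an unadjusted p under 0.05 in each comparison. The shares of all genes at that unadjusted p were 12.3% against unstimulated and 10.6% against H-CM. DESeq2 called 2 lower against unstimulated and 0 against H-CM at 12 h, beside 5.81% and 3.15% of all genes called in either direction.

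In the pathway on which Igf2 acts, 18 genes of IGF and insulin signalling were tested, and with TME-CM at 24 h 4 were higher and 2 lower than in unstimulated cells. Igf1, the related growth factor, had 95.7 ± 27.6 CPM against 28.3 ± 6.99 CPM (log2 fold change 1.76, edgeR adjusted p = 1.59e-06). The binding proteins Igfbp3 (1.59, adjusted p = 0.000935) and Igfbp4 (1.35, 5.99e-07) were also higher, and Igfbp6 was lower (-1.29, 0.0236). Against H-CM 4 were higher and 2 lower. Between H-CM and unstimulated edgeR called 0 of the 18, with 5 at an unadjusted p under 0.05, and DESeq2 called 1.

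Dlk1 is related to the ligands of Notch. Of 12 genes of the Notch pathway tested at 24 h, 4 were lower with TME-CM than in unstimulated cells and 1 higher. The ligand Jag1 differed by -1.34 (12.8 ± 2.01 against 32.7 ± 2.01 CPM, edgeR adjusted p = 2.49e-05), and the target genes Hey1 (-1.43, adjusted p = 0.00187) and Heyl (-0.81, 0.0261) were lower too. Rbpj, the DNA-binding protein through which Notch acts, was higher (0.88, 0.000603). Against H-CM 1 was lower (Hey1, -1.99, 0.000139) and 1 higher (Rbpj, 0.56, 0.0459), and Jag1 was also lower with H-CM than in unstimulated cells (-0.83, 0.0149).

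Beside Cdkn1c, 6 other inhibitors of cyclin-dependent kinases were tested at 24 h, and 1 of them, Cdkn2a, was lower with TME-CM than in unstimulated cells (-0.86, edgeR adjusted p = 0.00057). Against H-CM edgeR called 0 of the 6, with 2 at an unadjusted p under 0.05, and DESeq2 called 1. Of 10 genes of cell division, 2 were higher than in unstimulated cells, Top2a (0.76, 0.0302) and Cdk1 (0.60, 0.0211), and 1 was higher than with H-CM (Birc5, 0.67, 0.0463).

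Enteric glial markers were present in every group. Their summed level over 10 genes at 24 h was 245 to 291 CPM in unstimulated libraries, 278 to 314 CPM with H-CM and 239.8 to 335 CPM with TME-CM, and none of the 10 was at 0 in any of the 3 groups. Of 9 tested, edgeR called 0 in the 3 comparisons at 24 h, with 1 or 2 at an unadjusted p under 0.05, while DESeq2 called 1 lower with TME-CM than with H-CM. Of 10 enteric neuron markers and 7 macrophage markers edgeR and DESeq2 called 0 in these comparisons, with at most 2 and 0 at an unadjusted p under 0.05.

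Of 12 markers of fibroblasts and mesenchyme, 3 were higher and 1 lower with TME-CM than in unstimulated cells at 24 h, with Pdgfra at 92.2 ± 15.6 against 30.0 ± 6.29 CPM and Col1a1 at 3003 ± 436 against 4042 ± 647 CPM. Against H-CM 5 were higher. Interstitial cells of Cajal were represented by 4 markers, of which 1 (Ano1) was lower than in unstimulated cells and 2 (Ano1 and Kit) lower than with H-CM. Of 3 endothelial markers tested, 2 were lower than in unstimulated cells and 1 lower than with H-CM (Kdr). Mesothelial and epithelial markers summed to at most 17.3 and 5.25 CPM at 24 h, and Krt8 and Vil1 were at 0 in all libraries of that time.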

How the data were processed

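Libraries were made with the QuantSeq 3′ mRNA kit and sequenced on a HiSeq4000. The authors checked reads with FastQC 0.11.7, trimmed adapters, mapped them with HISAT2 to the mm10 build, dropped multi-mapping reads, used SAMtools 1.5 and counted with HT-seq Count. The annotation, the strand setting and any use of molecular identifiers are not given in the sources used here. The deposited values are raw counts per gene symbol.

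Tests were run with edgeR 4.0.16 and DESeq2 1.42.0 (R 4.3.3, limma 3.58.1). For each time the filterByExpr filter (minimum count 10) was applied, and counts were scaled by TMM and fitted with 1 mean per group (robust quasi-likelihood), and calls have an adjusted p under 0.05 over all genes tested. The common dispersion was 0.572 (6 h), 0.122 (12 h) and 0.0455 (24 h), and the SE of each difference carries both depth and spread between libraries. The test of TME-CM against H-CM at each time was first tested on simulated data, and the models of 2 times were not. CPM were computed with 1 TMM scaling of 13469 genes in 36 libraries.

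The 10 genes and all lists were chosen with earlier results of these data known. All 10 are described. From each other list at most 4 genes are named, those called against unstimulated or H-CM at 24 h with the largest change of TME-CM against unstimulated, apart from Slc38a4, Rtl1, Dio3, Krt8, Vil1 and the genes that overlap members, which were named after their values were seen. Likeness to Dlk1 used log2 CPM with a prior count of 2. Positions are from GENCODE's GRCm38 annotation, the assembly also called mm10. Alternatives were DESeq2's size factors and Wald test, no filter, a replicate block and leaving out libraries. The comparisons of 12 h with 6 h and the fit without libraries numbered 4 were added after the data were seen.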

Additional observations from a re-analysis of the deposited data

Results flagged for a closer look

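In 10 of the 90 sets of 4 libraries (10 genes in 9 groups) the lowest or highest library stood far from the other 3, with a gap past the 95% critical value of Dixon's test. For independent sets of normally distributed values such a gap comes up in about 1 in 20. The 90 sets share 36 libraries of unequal depth, so this rate does not test the 10 found. Igf2 stood apart in replicate 4 in 3 groups: 1273 CPM with TME-CM at 12 h (next library 1741), 1031 CPM with H-CM at 24 h (next 1406) and 977 CPM with TME-CM at 24 h (next 1384). H19 had 1340.0 CPM in unstimulated replicate 3 at 6 h, a library of 256453 counts, where the next library had 5067. Dlk1 had 489.9 CPM in H-CM replicate 1 at 24 h, where the next had 777. Peg3 had 79.0 CPM in H-CM replicate 4 at 12 h (next 52.9) and 29.6 CPM in unstimulated replicate 1 at 24 h (next 59.9). Plagl1 had 52.0 CPM in H-CM replicate 3 at 12 h (next 90.6). Ndn had 163 CPM in TME-CM replicate 1 at 6 h (next 61.3) and 84.4 CPM in unstimulated replicate 2 at 12 h (next 47.4).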

How the results depend on the processing

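No direction of a called gene was reversed in the fits tried. All Dlk1 calls between media held in the 5 other settings, and so did both Cdkn1c calls at 24 h. The numbers of the 10 genes called that moved were as follows. Against H-CM, TME-CM at 12 h had 1 call, 3 without the filter on low counts and 2 with DESeq2, and at 24 h 2 calls, 5 without the filter and 5 with DESeq2. Against unstimulated at 12 h it had 4 in place of 3 without the filter (Peg3 added). Against unstimulated with all libraries numbered 4 left out (chosen after seeing the data), TME-CM had 1 call at 12 h in place of 3 and 2 at 24 h in place of 5. H-CM against unstimulated at 24 h had 0 calls, 2 without the filter and 1 with DESeq2. TME-CM at 24 h against 12 h had 0 calls, 1 without the filter and 1 with DESeq2. H-CM at 12 h against 6 h had 1 call and 2 without the filter, TME-CM at 12 h against 6 h 1 call and 0 without the libraries numbered 4, and the change from 6 h to 12 h 0 calls, 1 without the filter and 1 with DESeq2. With 1 library left out, the counts ranged from 1 to 2 and 2 to 4 (TME-CM against H-CM at 12 h and 24 h), 2 to 3 and 3 to 5 (against unstimulated), and 0 to 1 (H-CM against unstimulated at 24 h, TME-CM at 24 h against 12 h, H-CM and TME-CM at 12 h against 6 h, and the change from 6 h to 12 h). The cause of these moves was not tested. Same-numbered libraries deviated together (r over 0.1) in 1 of 12 pairs at 6 h, 2 of 12 at 12 h and 2 of 12 at 24 h. For differently numbered libraries it was 2, 3 and 3 of 36 pairs. The median r at 24 h was 0.065 for the same number and -0.012 for different numbers. The main fits did not take the numbers as pairs, although replicate 4 was lowest for Igf2 and H19 in each group at 24 h. Whether the numbers mark a shared batch was not tested. With the replicate block the counts were 1 for H-CM against unstimulated at 24 h (Dlk1, adjusted p = 0.0274), 3 for TME-CM against H-CM at 24 h (Plagl1 added, -0.67, 0.0453) and 1 for TME-CM at 24 h against 12 h (Cdkn1c, -0.88, 0.0176), and the others did not change. Over all genes, calls between media also moved by over 1.5 times. Without the libraries numbered 4 they were 66 in place of 230 (12 h) and 380 in place of 686 (24 h) for TME-CM against H-CM, 272 in place of 536 and 778 in place of 1210 for TME-CM against unstimulated, and 32 in place of 49 and 117 in place of 258 for H-CM against unstimulated. Without the filter and with DESeq2 they were 465 and 383 (TME-CM against H-CM, 12 h), 168 and 98 (H-CM against unstimulated, 12 h) and 446 and 410 (24 h). Other moves were smaller. The 686 calls of TME-CM against H-CM at 24 h were 896 without the filter, 903 with DESeq2 (7.1% of genes) and 675 with the block. The 536 of TME-CM against unstimulated at 12 h were 649 without the filter. With the block the 258 of H-CM against unstimulated at 24 h were 245, and the 82 of TME-CM at 24 h against 12 h were 99. At 6 h the 9 calls against H-CM were 41 without the filter, 23 with DESeq2, 2 with its size factors, 4 with the block and 3 without the libraries numbered 4, and the 42 against unstimulated were 105, 72, 23, 23 and 20. For TME-CM over time, the 176 calls of 12 h against 6 h were 415 without the filter, 595 with DESeq2 and 35 without the libraries numbered 4, and the 82 of 24 h against 12 h were 175, 165 and 14. The 10 calls for the change from 6 h to 12 h were 85 without the filter, 58 with DESeq2 and 5 with the block. In unstimulated and H-CM cells, 12 h against 6 h had 26 and 5 calls, 97 and 84 without the filter and 81 and 31 with DESeq2, and 24 h against 12 h had 2 and 1, 49 and 63 without the filter and 20 and 22 with DESeq2.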
